A study of Mus musculus with 6 samples.

Results

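The neuronal microtubule and neurofilament genes described here are Mapt, Map2, Map1a, Map1b, Dcx, Dclk1, Tubb2b, Tubb3, Stmn2 and Nefl. These 10 genes were chosen by symbol and found through the GENCODE annotation of GRCm38 among the 36008 genes of the deposited gene table. All 10 were in the table and passed the filter on low counts. The data were polyA RNA-seq of hippocampus from 3 wild-type (WT) and 3 Prmt9 KO mice, each library from an individual animal. All mice were female, of the B6J strain, and labelled as 2 weeks old, and the KO mice and their controls were littermates of the same sex. The KO removed a floxed exon of Prmt9 in the whole body through a CMV-Cre deleter, so the loss was not restricted to neurons or to the hippocampus. Prmt9 is a protein arginine methyltransferase whose known substrate is the splicing factor SF3B2, and the series asked which genes and splice forms depend on it.

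Microtubules are polymers of alpha and beta tubulin that fill axons and dendrites. Growing neurons use tubulin isotypes, doublecortin proteins and stathmins of a developmental type, and as neurites mature the microtubules are bundled by microtubule-associated proteins (MAPs), tau in axons and MAP2 in dendrites, while neurofilaments set axon calibre. Tau and MAP2 are themselves spliced differently in young and mature neurons: young neurons make short forms without the N-terminal inserts of tau or the large central exon of MAP2. For the index below, Dcx, Dclk1, Tubb2b, Tubb3, Stmn2 and Map1b were counted as early genes, Map1a and Nefl as late genes, and Mapt and Map2 as genes used at all stages.

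The sequences of the spliced exons followed below were read from the annotated transcripts. The tau N-terminal exons are 2 coding cassettes of 87 bases each, and their presence separates the long N-terminus from the short one. They lie on the forward strand at chr11:104287123-104287209 and chr11:104289908-104289994 (GRCm38), and capitals mark bases that are the same at the same position of both, 30 of 87 (34.5%).
Mapt first N-terminal exon: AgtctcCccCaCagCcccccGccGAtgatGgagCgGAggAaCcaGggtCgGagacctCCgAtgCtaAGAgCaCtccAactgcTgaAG
Mapt second N-terminal exon: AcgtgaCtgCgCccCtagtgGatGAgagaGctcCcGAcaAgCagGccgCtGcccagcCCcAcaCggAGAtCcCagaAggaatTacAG

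MAP2 binds microtubules through a set of repeats, and 1 repeat is carried by a coding exon of 93 bases at chr1:66431527-66431619 on the forward strand. Of the annotated Map2 transcripts, 4 include this exon and 7 skip it. It is shown in lower case because its inclusion is followed below.
Map2 repeat exon: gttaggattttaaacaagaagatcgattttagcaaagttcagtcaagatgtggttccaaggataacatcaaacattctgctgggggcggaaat

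The RefSeq sequences (GRCm38.p6) held promoter windows for 6 of the 10 members, and those of Dclk1 are shown because its transcripts are grouped by start below. The upstream promoter, chr3:55242114-55242413, precedes transcripts with the microtubule-binding doublecortin domains, and the downstream promoter, chr3:55461478-55461777, precedes transcripts that lack these domains. Capitals mark CG dinucleotides, 5 in the upstream and 6 in the downstream window, each read 5′ to 3′ on the forward strand. At least 5 CG were present in 62.0% of all 32851 promoter windows and at least 6 in 56.4%. The upstream promoter of Map2 held 37, a number reached by 5.6% of all windows.
Dclk1 upstream promoter: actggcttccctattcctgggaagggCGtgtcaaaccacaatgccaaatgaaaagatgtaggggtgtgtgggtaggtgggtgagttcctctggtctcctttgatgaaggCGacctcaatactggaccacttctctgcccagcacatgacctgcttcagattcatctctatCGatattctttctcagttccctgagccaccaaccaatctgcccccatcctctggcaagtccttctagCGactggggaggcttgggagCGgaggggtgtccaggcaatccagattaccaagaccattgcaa
Dclk1 downstream promoter: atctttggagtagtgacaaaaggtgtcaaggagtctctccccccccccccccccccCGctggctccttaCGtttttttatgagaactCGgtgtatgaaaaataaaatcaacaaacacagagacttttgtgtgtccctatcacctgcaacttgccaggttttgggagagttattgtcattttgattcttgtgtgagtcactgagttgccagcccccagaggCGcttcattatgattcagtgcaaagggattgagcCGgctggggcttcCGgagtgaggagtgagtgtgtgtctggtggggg

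The libraries held between 194098391 and 286771677 estimated counts. WT replicate 1 had the fewest counts and no count for 37.4% of transcripts, against 22.8% to 24.8% in the other 5 libraries. Levels are given as TPM, the abundance scaled for transcript length and for the total of a library. Prmt9 itself was at 11.8, 15.25 and 14.96 TPM in WT and at 3.93, 4.61 and 4.67 TPM in KO replicates 1, 2 and 3, a log2 fold change of −1.71 ± 0.10 (SE, n = 3 per group, adjusted p = 0.0327 in edgeR). Replicate 1 of both genotypes stood apart from the other 4 mice: of 20311 genes with a level, both replicates 1 lay above all other mice for 19.0% and below all of them for 45.8%. The 8 pyramidal and granule neuron markers were present in every library and the lowest level among all 48 marker genes of the tissue was 1.27 TPM, so none was at 0. No label gives a cause for the difference of replicates 1, all 6 mice being labelled as the same age.

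The immature beta tubulins and stathmin were the members that differed most between mice. Tubb2b, a beta tubulin of migrating and growing neurons, was at 947, 389 and 382 TPM in WT and at 1279, 419 and 366 TPM in KO replicates 1, 2 and 3. Replicate 1 was the highest of each genotype, 2.46 times the mean of the other WT mice and 3.26 times that of the other KO mice. Tubb3, the neuron-specific beta tubulin, was at 704, 325 and 316 TPM in WT and at 886, 318 and 278 TPM in KO. Stmn2, a stathmin that binds tubulin dimers in growth cones, was at 880, 345 and 346 TPM in WT and at 1170, 393 and 349 TPM in KO. For these 3 genes both replicates 1 lay above all other mice, and the other 4 mice stayed within a narrow band whatever their genotype, 278 to 419 TPM. Tubb2b reads can also come from its near-identical neighbour Tubb2a, whose level was 2759 and 3133 TPM in replicates 1 and between 1218 and 1419 TPM in the others, so the division between both genes is uncertain.

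The doublecortin genes went different ways. Dcx, which marks migrating and newborn neurons, was at 18.0, 14.6 and 14.5 TPM in WT and at 28.4, 16.7 and 15.3 TPM in KO. It was the lowest member in level, and both replicates 1 again lay above the others. Dclk1, its paralogue with a kinase domain, was at 156, 278 and 282 TPM in WT and at 231, 281 and 268 TPM in KO. For Dclk1 both replicates 1 lay below the other 4 mice.

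Among the large MAPs, Map1a and Map2 were lowest in replicates 1 and Map1b was not. Map1a, the MAP1 protein of mature dendrites, was at 140, 291 and 282 TPM in WT and at 160, 250 and 264 TPM in KO, with both replicates 1 at the bottom. Map2, the dendritic MAP, was at 241, 458 and 462 TPM in WT and at 324, 486 and 453 TPM in KO, again with both replicates 1 lowest. Map1b, the MAP1 protein of growing axons, was at 137, 189 and 180 TPM in WT and at 179, 173 and 165 TPM in KO. Here replicate 1 was the lowest WT mouse but the highest KO mouse.

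Tau and the neurofilament light chain showed no common direction in the replicates 1. Mapt, the axonal MAP, was at 193, 250 and 244 TPM in WT and at 274, 234 and 225 TPM in KO. Nefl, a subunit of neurofilaments, was at 230, 267 and 262 TPM in WT and at 282, 258 and 245 TPM in KO. In both genes, as in Map1b, replicate 1 was lowest in WT and highest in KO, so the replicates 1 did not lie on the same side of the other mice.

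**Figure D1:**
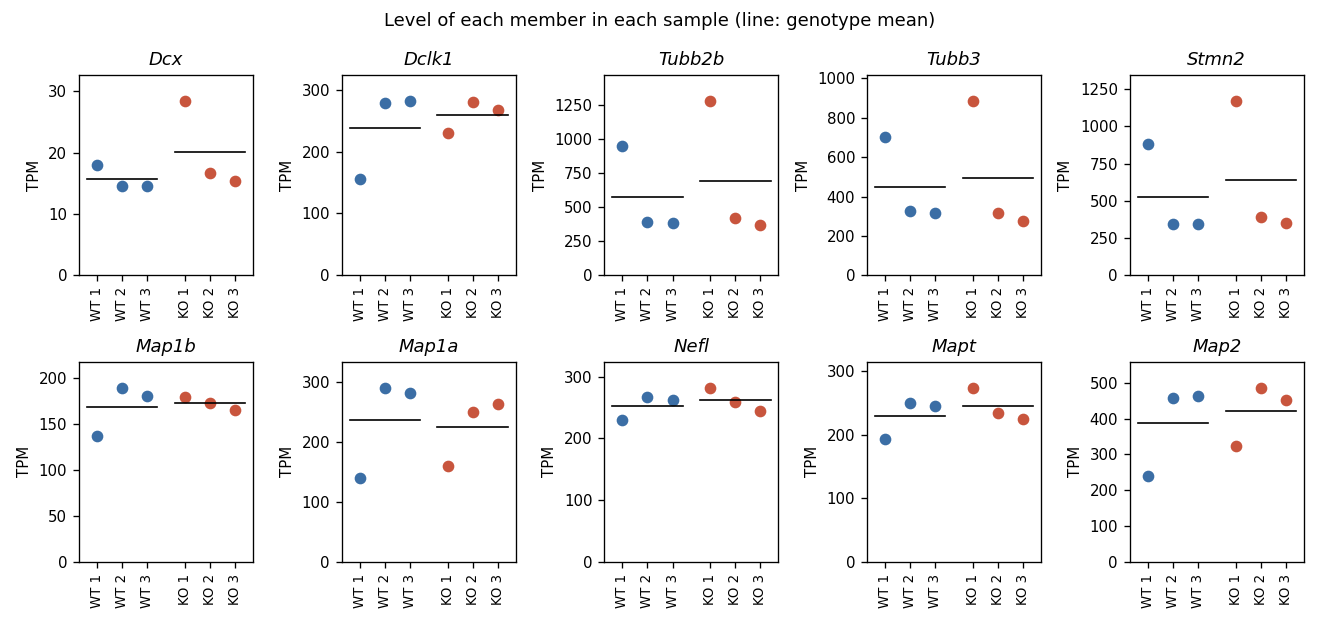
TPM of each of the 10 members (y axis, from 0) in each WT (blue) and KO (red) mouse (x axis, replicates 1 to 3), with a line at each genotype mean. Tubb2b, Tubb3 and Stmn2 are highest in replicate 1 of both genotypes, at 704 to 1279 TPM, while Map1a and Map2 are lowest there.

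In all, both replicates 1 lay above the other 4 mice for 4 of the 10 members (Tubb2b, Tubb3, Stmn2 and Dcx) and below them for 3 (Map1a, Map2 and Dclk1), beside the 19.0% and 45.8% of all genes given above. Over all genes, the median ratio of replicate 1 to the other mice of its genotype fell with transcript length. Over genes of 1000 to 2000 bases, the median log2 ratio of replicate 1 to the mean of the other mice of its genotype was 0.10 in WT and 0.11 in KO (3406 genes). Over genes of 2000 to 4000 bases it was −0.36 in WT and −0.12 in KO (6037 genes). Over genes of 4000 to 8000 bases it was −0.67 in WT and −0.30 in KO (3558 genes), and above 8000 bases −0.86 and −0.46 (545 genes).

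Against genes of like length, the members differed in how far they lay from the median of their class. Tubb3, with a transcript of 1868 bases, had log2 ratios of 1.14 in WT and 1.57 in KO, far above the median of its length class. Tubb2b (2181 bases) had ratios of 1.30 and 1.70, and Stmn2 (2068 bases) 1.35 and 1.66. The medians of their class, 2000 to 4000 bases, were negative in both genotypes. Dcx, with a mean length of 8714 bases, had ratios of 0.30 and 0.83 where its class was negative in both genotypes. Map2 had ratios of −0.93 and −0.53 and Map1a −1.03 and −0.68, below the medians of their classes in both genotypes. Both lay nearer to these medians than Tubb3 or Dcx did to theirs. Nefl had ratios of −0.20 and 0.16, above the medians of its class in both genotypes. Dclk1 had −0.85 and −0.25, below the median of its class in WT and above it in KO. Map1b had ratios of −0.43 and 0.08 and Mapt −0.36 and 0.25, above the medians of their classes in both genotypes but by less than Tubb3 or Dcx. The part of transcript length in these differences was not tested. The median difference between length and effective length, which reflects the fragment length, was 191 bases in WT replicate 1, 175 in KO replicate 1 and 166 to 169 in the other libraries.

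**Figure D2:**
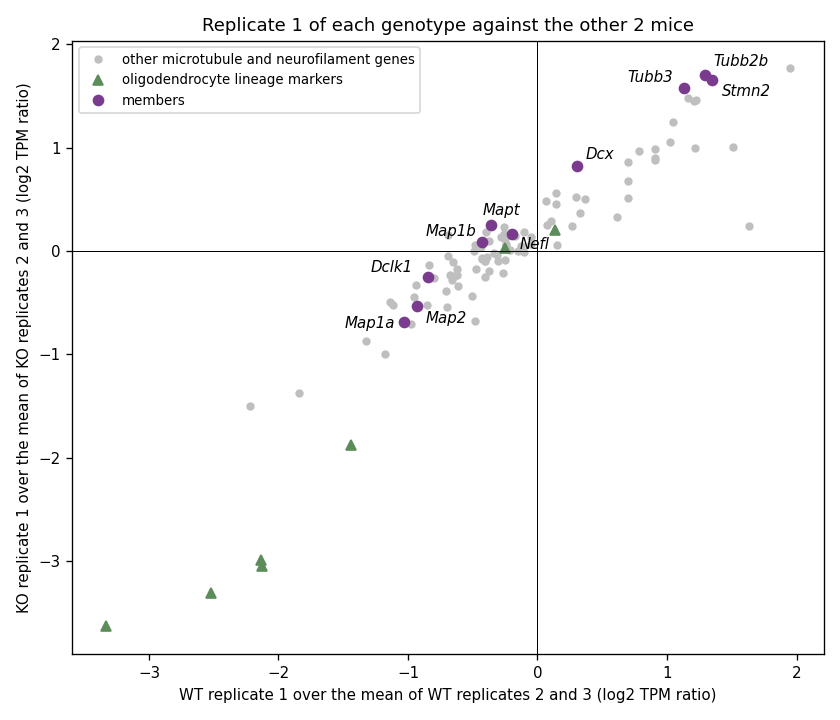
Each point is a gene, with the log2 TPM ratio of replicate 1 to the mean of replicates 2 and 3 in WT on the x axis and in KO on the y axis (purple: members; grey: 84 other microtubule and neurofilament genes; green: 7 oligodendrocyte lineage markers). Tubb2b, Tubb3 and Stmn2 sit at the upper right and Map1a and Map2 at the lower left, with 5 of the 7 oligodendrocyte markers further out.

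Several sets of cell type markers also differed in the replicates 1, where 19.0% of all genes lay above and 45.8% below the other mice. The 7 oligodendrocyte lineage markers summed to 2081 TPM in WT replicate 1 and 1114 TPM in KO replicate 1, against 7483 to 10780 TPM in the other 4 mice. Mbp, the myelin basic protein, was among the 5 that were below in both replicates 1, whereas Pdgfra of their precursors overlapped and Cspg4 was above. The 7 immature granule neuron and progenitor markers all lay above the other mice in both replicates 1 and summed to 203 and 206 TPM against 119 to 128 TPM. The 8 pyramidal and granule neuron markers summed to 1090 and 1166 TPM against 1351 to 1481 TPM, with 6 of the 8 below. Interneuron and astrocyte markers were below for 4 of 6 each and microglia markers for 3 of 5, with none above. Of the 5 endothelial and mural markers 1 was above and 1 below. Choroid plexus and ependymal markers ranged from 613 to 7248 TPM, with the highest sum in WT replicate 1 and 866 TPM in KO replicate 1. The part of cell composition in the levels of the members was not tested. In bulk tissue, fewer cells of a type and less RNA per cell cannot be told apart.

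The early against late index is a single value per mouse, the mean log2 TPM of the 6 early members minus that of the 2 late members. It was 0.46, −0.63 and −0.62 in WT replicates 1, 2 and 3 and 0.68, −0.44 and −0.58 in the KO replicates. The index was above 0 only in the replicates 1. The genotype means were −0.27 ± 0.62 in WT and −0.11 ± 0.69 in KO (SD, n = 3), a difference of 0.15 that was smaller than the spread within either genotype. Between mice of the same number, KO exceeded WT by 0.22, 0.19 and 0.04. Without the replicates 1 the difference was 0.11, an alternative chosen after seeing the data. Not every member followed the index. Of the 6 early members, 4 lay above the other mice in both replicates 1, and 1 (Dclk1) lay below. Of the 2 late members, 1 (Map1a) lay below.

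No member was called differentially expressed between KO and WT. With edgeR's quasi-likelihood test and limits of 0.01 for the adjusted p and 1.5 for the fold change, 0 of the 10 members and 0 of all 20315 genes tested (0.0%) were called, while 252 genes (1.24%) and no member had an unadjusted p below 0.05. Prmt9, the deleted gene, was not called by edgeR either, because its adjusted p given above exceeded 0.01. The 0 calls therefore do not show that the members were unchanged. DESeq2 called 2 genes, neither of them a member. The TPM ranges of KO and WT overlapped for all 10 members, and they did not overlap for 6.67% of all genes.

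The errors of the member differences were widest for Tubb2b, Stmn2 and Tubb3. The log2 fold change of Dcx was 0.28 ± 0.40 (SE, n = 3 per group), that of Tubb2b 0.14 ± 0.70, that of Stmn2 0.12 ± 0.68 and that of Tubb3 0.03 ± 0.64. Map1a differed by −0.13 ± 0.23, Dclk1 by 0.11 ± 0.10, Map2 by 0.08 ± 0.20, Mapt by 0.07 ± 0.18, Map1b by −0.03 ± 0.11 and Nefl by −0.02 ± 0.13. Leaving out WT replicate 1 moved Tubb2b to 0.94 and leaving out KO replicate 1 moved it to −0.76, and Stmn2, Tubb3 and Dcx likewise turned from positive to negative without KO replicate 1. The median over the 10 members was 0.08, beside −0.01 over all genes tested. Every adjusted p of a member was 1.0 in edgeR with Benjamini-Hochberg adjustment.

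Comparing mice of the same number within a replicate block narrowed the errors to between 0.06 and 0.10. The labels do not give this pairing. It was taken from the expression values, which set apart only number 1 and do not tell pairs 2 and 3 apart. With this block, Dcx differed by 0.23 ± 0.08 (unadjusted p = 0.0288, adjusted p = 0.790 in edgeR), and it was the only member with an unadjusted p below 0.05, where 2.57% of all genes reached this in the higher direction and 3.17% in the lower. Dcx was higher in KO than in WT in 3 of 3 pairs. Tubb3 changed sign to −0.04 ± 0.08 with the block, and Map1a stood at −0.12 ± 0.06. Without the replicates 1, Map1a was at −0.16, Map1b at −0.13, Mapt at −0.09, Dcx at 0.14 and Tubb2b at 0.03, and no member was called. In that comparison 1 of the 10 members was higher (Dcx) and 2 were lower (Map1a and Map1b) at an unadjusted p below 0.05 in edgeR, beside 7.82% and 8.6% of all genes, and their adjusted p was 0.219, 0.174 and 0.254 in edgeR.

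**Figure D3:**
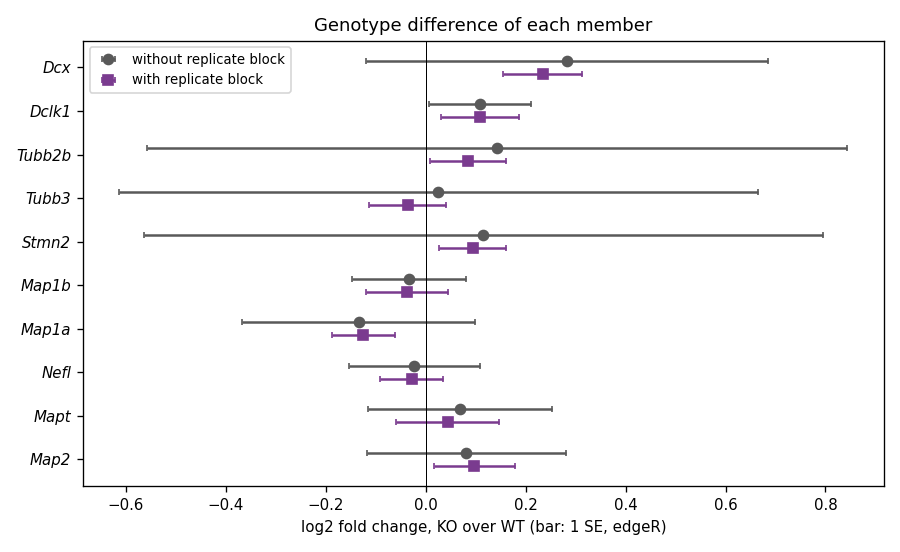
Log2 fold change of KO over WT for each member (x axis, positive is higher in KO), with bars of 1 SE from edgeR, without (grey circles) and with (purple squares) mice of the same number compared as a block. The SE of Tubb2b, Tubb3 and Stmn2 falls from 0.64 to 0.70 without the block to 0.07 to 0.08 with it.

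In order of mean level in WT, Tubb2b was first at 572 ± 324 TPM (SD, n = 3), followed by Stmn2 at 524 ± 309, Tubb3 at 448 ± 221, Map2 at 387 ± 126, Nefl at 253 ± 20, Dclk1 at 239 ± 72, Map1a at 238 ± 84, Mapt at 229 ± 31, Map1b at 169 ± 28 and Dcx at 15.7 ± 2.0. The WT ranges of neighbours in this order overlapped from Tubb2b down to Mapt, so that only the last 2 steps, from Mapt to Map1b and from Map1b to Dcx, separated neighbouring genes. The order was set by the replicates 1 at its top: in the other 4 mice Map2 was the highest member, at 453 to 486 TPM.

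MAP2 splice forms differed more between mice than any genotype difference. Map2 (chr1:66175273-66442583, forward strand) has 24 annotated transcripts, of which Map2-204 is the only one counted with the 3741-base exon (chr1:66412407-66416147) that makes the high molecular weight MAP2 of mature dendrites. Its level was 64.6, 190 and 193 TPM in WT and 102, 202 and 186 TPM in KO. The short form Map2-202, which lacks this exon and starts at a downstream first exon of 122 bases, was at 99.5, 3.61 and 2.14 TPM in WT and at 82.6, 1.51 and 2.16 TPM in KO. It took 41.2% and 25.5% of Map2 in the replicates 1 and at most 0.79% in the other 4 mice.

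Map2-201 has the same number of coding bases as Map2-202, 1401, but an upstream first exon. It was at 20.1, 129 and 126 TPM in WT and at 75.8, 133 and 129 TPM in KO, lowest in both replicates 1. Map2-207, the main form with the repeat exon, was at 13.4, 36.5 and 38.2 TPM in WT and at 20.0, 34.5 and 32.8 TPM in KO. Grouped by start, transcripts from the start of Map2-202 took 42.1% and 26.4% of Map2 TPM in the replicates 1 and 0.97% to 1.72% in the others. The last exons of Map2-201 and Map2-202 begin at the same base and have 3790 and 3792 bases. Reads from there can hardly tell these forms apart, and how well they were divided was not tested. The start used by Map2-204 took 27.5% and 32.0% in the replicates 1 against 42.3% to 43.1%. The upstream start with the CG-rich window took 4.70% to 7.62%.

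**Figure D4:**
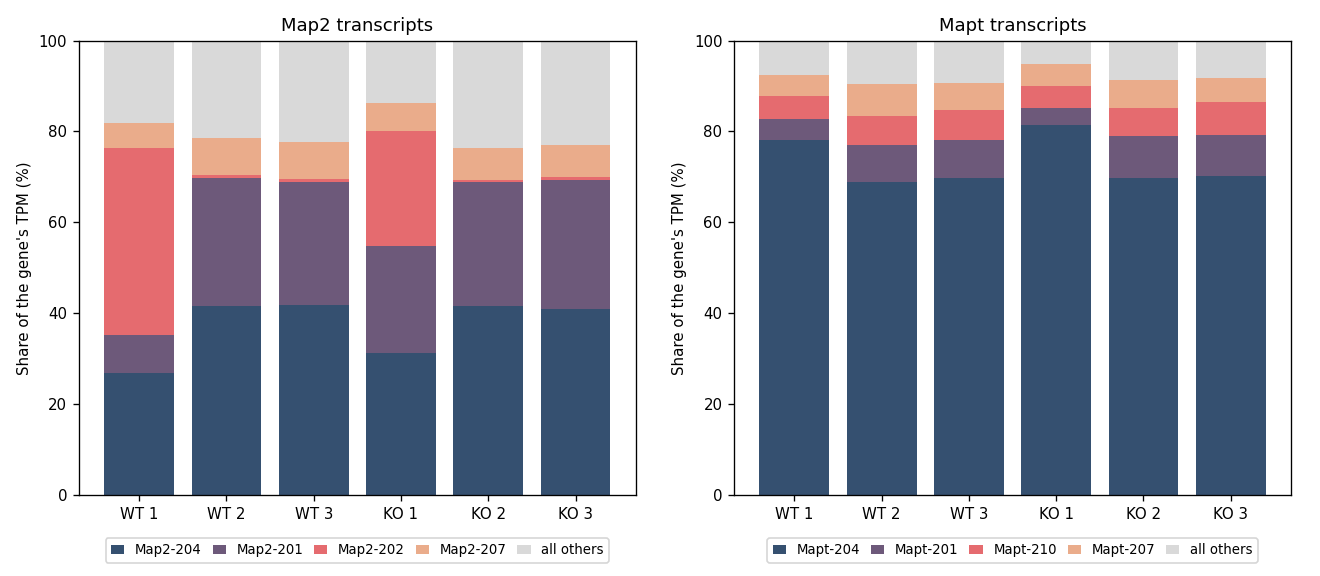
Share of each gene's TPM (y axis, %) by transcript in each mouse (x axis), for Map2 at left and Mapt at right. Map2-202 (red, left panel) holds 41.2% and 25.5% in replicates 1 of WT and KO and under 1% elsewhere, and Mapt-204 holds most of Mapt in every mouse.

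Inclusion of the long Map2 exon, the TPM of transcripts with it over that of all transcripts that span it, was 0.318, 0.513 and 0.517 in WT and 0.354, 0.525 and 0.512 in KO. The means were 0.449 ± 0.114 and 0.464 ± 0.095 (SD, n = 3, exact permutation test, two-sided, p = 0.7). The replicates 1 were lowest and the other 4 mice lay between 0.512 and 0.525. The repeat exon of Map2 was included at 0.0855, 0.0935 and 0.0965 in WT and at 0.0741, 0.0853 and 0.0862 in KO, with means of 0.0918 ± 0.0057 and 0.0819 ± 0.0067 (exact permutation test, two-sided, p = 0.2). KO was below WT in 3 of 3 pairs of the same number, but the ranges of the genotypes overlapped. The smallest p that 3 mice per group allow in this test is 0.1. The annotated last exon of Map2-204 has 397 bases and that of Map2-201 has 3790, so reads from the long 3′ end could be assigned only to short forms, and inclusion values are not absolute shares. Whether such assignment differed between mice was not tested.

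Among the annotated transcripts, tau was mostly the form without N-terminal inserts. Forms absent from the annotation could not be counted, so the forms given here are not a full survey of tau. Mapt-204 (no N-terminal exon, chr11:104231390-104332090, forward strand) was at 151, 172 and 171 TPM in WT and at 223, 164 and 158 TPM in KO. It took 78.2%, 68.9% and 69.8% of Mapt in WT and 81.3%, 69.8% and 70.1% in KO, the highest in both replicates 1. Mapt-201, which has both N-terminal exons, was at 8.78, 20.1 and 20.0 TPM in WT and at 10.4, 21.8 and 20.8 TPM in KO, the lowest in both replicates 1. The remaining forms above 5% were the incomplete Mapt-207, with 4.59% to 7.08%, and Mapt-210, a transcript without coding sequence, with 4.89% to 7.10%.

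The first N-terminal exon, shown above, was included at 0.116, 0.182 and 0.171 in WT and at 0.0991, 0.182 and 0.174 in KO, with means of 0.156 ± 0.035 and 0.152 ± 0.046 (SD, n = 3, exact permutation test, two-sided, p = 0.9). The second was included at 0.0548, 0.0968 and 0.0996 in WT and at 0.0433, 0.108 and 0.111 in KO (exact permutation test, two-sided, p = 0.9). Both exons were included least in the replicates 1. Mapt-201 ends in an annotated last exon of 248 bases and Mapt-204 in one of 4119, so here too reads from the long 3′ end could be assigned only to some forms.

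**Figure D5:**
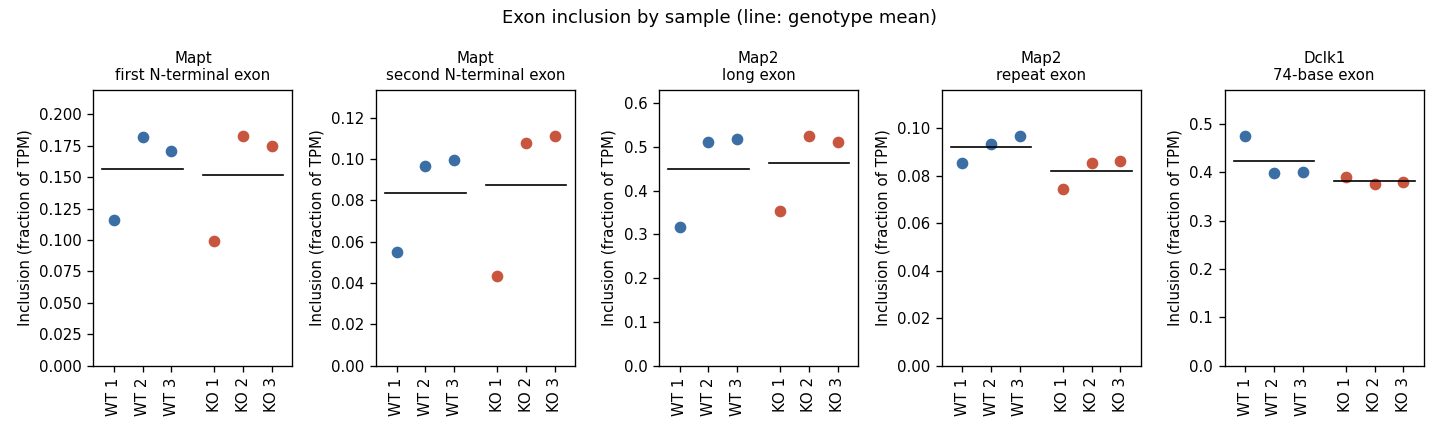
Inclusion of 5 cassette exons (y axis, fraction of TPM from 0) in each WT (blue) and KO (red) mouse, with a line at each genotype mean. Both Mapt exons and the long Map2 exon are lowest in the replicates 1, and the Dclk1 exon at right is the only one whose genotype ranges do not overlap.

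Over Mapt and Map2, 14 cassette exons were compared, each with at least 1 TPM of including and skipping transcripts together in every mouse. The genotype ranges overlapped for all 14, the lowest p of the exact test was 0.2 (0.969 after Benjamini-Hochberg adjustment over the 14), and for 10 of them both replicates 1 lay on the same side of the other 4 mice. The share of such exons over all genes is not given here. The 14 are also not separate observations, because exons of 1 gene share transcripts. Map2-204 carries the Map2 exons of 3741, 207 and 135 bases, which had nearly the same inclusion. Among the low ones was the 759-base exon of Mapt (chr11:104298498-104299256), the exon of large tau in the peripheral nervous system, included at 0.0027 to 0.0096. Mapt-203, the main transcript with this exon, was at only 0.641 to 1.67 TPM, so these inclusion values rest on low levels.

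Dclk1 transcripts were grouped by the pair of starts shown above. Transcripts from the upstream start, with doublecortin domains, took 29.3%, 20.3% and 20.0% of Dclk1 in WT and 27.8%, 19.9% and 20.1% in KO, and those from the downstream start took 65.7% to 74.3%. Both replicates 1 were highest for the upstream start, and the genotypes did not separate (exact permutation test, two-sided, n = 3 per group, p = 0.6). A cassette of 74 bases (chr3:55521850-55521923) was included at 0.475, 0.399 and 0.400 in WT and at 0.390, 0.376 and 0.379 in KO, with means of 0.424 ± 0.044 and 0.382 ± 0.007. All KO mice lay below all WT mice (exact permutation test, two-sided, p = 0.1, the smallest possible). This exon was singled out after its values were seen, as the 1 of 16 cassettes in the members whose genotype ranges did not overlap. In this test, 0.1 is also the rate at which exons without a genotype difference separate. The share of such exons over all genes is not given here. The 74-base exon is carried by 2 transcripts, and only 1 of them separated the genotypes. Dclk1-202, the main one, was at 57.7, 53.9 and 53.0 TPM in WT and at 69.8, 60.5 and 61.3 TPM in KO, all KO mice above all WT mice (edgeR, log2 fold change 0.13 ± 0.23, adjusted p = 1.0). Dclk1-213 was at 1.26, 26.7 and 28.0 TPM in WT and at 3.01, 16.4 and 10.1 TPM in KO. Its genotype ranges overlapped, with KO higher than WT in replicate 1 and lower in replicates 2 and 3 (edgeR, log2 fold change −0.89 ± 1.0). Of the 4 transcripts that skip the exon, Dclk1-208 was at 23.3, 65.8 and 62.2 TPM in WT and at 56.6, 69.3 and 71.3 TPM in KO. Its share of Dclk1 was higher in all KO mice than in all WT mice, with means of 25.3% and 20.2%. The share of Dclk1-204 was lower in all KO mice, with means of 2.6% and 3.2%, and those of Dclk1-201 and Dclk1-207 overlapped.

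No change in transcript usage between genotypes was called for a member. In edgeR's test of relative transcript use with a Simes test per gene, 23 of 13560 genes (0.17%) passed an adjusted p of 0.01 and so did 0 of the 9 members with more than 1 transcript tested. All 9 members had an adjusted p of 1.0. With the replicate block 13 genes passed, without WT replicate 1 143 and without KO replicate 3 9, none of them a member. Without the replicates 1, Dclk1 was called (adjusted p = 0.00406 in edgeR, 2 mice per group) and the other 8 members were not, beside 249 of 13666 genes (1.82%). Without WT replicate 1 alone the adjusted p of Map2 was 0.0411, and without KO replicate 1 alone 0.0159, each above the threshold. At the level of single transcripts, 0 of the 64 member transcripts tested and 0 of all 75661 (0.0%) were called by edgeR, with 1 and 1216 at an unadjusted p below 0.05. With the replicate block 7 of the 64 (10.9%) and 2655 of all transcripts (3.51%) had an unadjusted p below 0.05 and none was called. The 7 were 2 of Map2, 3 of Dclk1, Dcx-201 and Stmn2-203, and 6 of them were higher in KO. DESeq2 called 110 transcripts, none of a member. The paper's test of splicing events, which also covered splice sites outside the annotation, called far more genes than the usage test here. The lack of usage calls for members with all mice therefore does not show that their splicing was unchanged.

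The remaining members had little diversity of form. Tubb2b-201, Tubb3-201 and Map1b-201 held at least 98.6% of their gene in every mouse, and Nefl has a single annotated transcript, which overlaps Nefm on the other strand. Stmn2-201 held 91.1% to 96.9%, and Map1a-202 91.7% to 94.1%. Dcx-201 held 88.0% and 88.3% in the replicates 1 and 73.5% to 75.8% in the others.

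The wider microtubule system was represented by 84 further genes, all of which passed the filter. None was called between genotypes and none had an unadjusted p below 0.05, so the rule for naming changed genes named none. Their log2 fold changes ran from −0.36 to 0.16 with a median of −0.03. With the replicate block, 4 genes were lower in KO at an unadjusted p below 0.05 (Map6d1, Map7d1, Dclk3 and Mtcl1, between −0.25 and −0.18) and none higher, beside 3.17% of all genes lower and 2.57% higher, and all 4 had an adjusted p of 0.790 in edgeR. Without the replicates 1, 4 of the 84 (4.76%) were higher and 17 (20.2%) lower at an unadjusted p below 0.05, beside 7.82% and 8.6% of all genes, and none was called. Clasp1, which binds growing microtubule ends, was the 1 gene of the 84 whose KO levels of 44.3 to 47.6 TPM lay above all WT levels of 32.8 to 43.0 TPM. No other gene of the 84 had KO and WT ranges that did not overlap, beside the 6.67% of all genes given above.

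Across the mice, both replicates 1 lay above the other 4 mice for 27 of the 84, below for 34 and within or on different sides for 23, beside 19.0% above and 45.8% below among all genes. The share below was thus smaller than over all genes, and the counts below for single lists are to be read against the same 45.8%. The tubulins were mostly above. Tuba1a, the main alpha tubulin of young neurons, was at 3737 and 4227 TPM in the replicates 1 of WT and KO and at 1470 to 1603 TPM in the others. Of the 12 other tubulins, 8 were above and 2 below, namely Tuba8 and Tubb4a, a beta tubulin enriched in myelinating cells, at 447 and 503 TPM against 653 to 753 TPM. All 3 other stathmins were above, led by Stmn3 at 1182 and 1179 TPM against 604 to 663 TPM.

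The structural MAPs were mostly below in the replicates 1, 9 of 13 against 2 above. Map4, the ubiquitous MAP and the highest of the list, was at 294 and 361 TPM against 373 to 395 TPM, and Map7, which recruits kinesin, was at 29.4 and 39.8 TPM against 94.9 to 111 TPM. Proteins of microtubule ends were below for 8 of 13, with Clip3 at 346 and 406 TPM against 420 to 475 TPM. Severing enzymes were below for 5 of 8.

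Enzymes that fold or modify tubulin were split, 7 of 15 above and 4 below, and the 7 included the folding cofactors Tbca, Tbcb, Tbcc and Tbcd. The related cofactor Tbce was below, at 81.3 and 122 TPM against 138 to 149 TPM. The highest of the list, the deglutamylase Agtpbp1, overlapped between 163 and 202 TPM. Of the 16 tau kinase and phosphatase genes 3 were above and 6 below. The scaffold subunit Ppp2r1a was above at 782 and 721 TPM against 481 to 513 TPM, and both Gsk3a and Gsk3b, kinases of tau, were below. Among the other neurofilament genes, Nefm overlapped between 72.6 and 119 TPM and Prph, the intermediate filament peripherin, was above at 16.8 and 18.9 TPM against 4.23 to 5.66 TPM.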

How the data were processed

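The authors sequenced polyA RNA of hippocampus from stranded libraries and quantified transcripts with kallisto (version 0.46.0 in the submitters' processing notes; the paper's methods name another version). The deposited files hold estimated counts and TPM for 118783 transcripts, and TPM summed per gene. Of these transcripts, 116622 matched GENCODE M21 (GRCm38) and 2161, with at most 0.814% of the counts of a library, were left out. No column lacked a sample. Whether kallisto used strand is not given in the sources used here, so reads of overlapping genes on opposite strands may not have been separated.

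Estimated counts were summed per gene and rounded. Genes and transcripts were compared with edgeR 4.0.16 (TMM, quasi-likelihood, filterByExpr; DESeq2 1.42.0 and limma 3.58.1 as alternatives, R 4.3.3), with the study's thresholds of 0.01 for the adjusted p and 1.5 for the fold change. Transcript usage was tested with diffSpliceDGE. An exon's inclusion is the TPM of transcripts containing it over that of transcripts containing or skipping it (exact permutation, SciPy 1.17.1). The edgeR tests were tried on counts simulated with a dispersion (spread between mice) of 0.01 and without a shift of the replicates 1. All changed features were recovered. For usage there were 10 false calls beside 179 changed genes, for transcripts 1 and for genes 0. Replicates are individual mice of 1 genotype, and no 2 libraries agreed within sampling noise.

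Mice of equal number deviated together from their genotype means (correlations over 20315 genes of 0.553, 0.415 and 0.383 for numbers 1, 2 and 3, each above 0.1), so mice of equal number were taken as pairs. This pairing comes from the values, not the labels. Numbers 2 and 3 correlated across as strongly (0.417 and 0.394), so the values set apart only number 1 and do not tell pairs 2 and 3 apart.

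The members and gene lists were chosen with earlier results of these data known. Named genes are all members, Prmt9, the 3 strongest other genes per direction at an unadjusted p below 0.05, the highest gene of each list, and Mapt and Map2 transcripts with a share of at least 5%. Other genes were named after their values were seen. Some items that this rule covers are not reported here.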

Additional observations from a re-analysis of the deposited data

How the results depend on the processing

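Calls of members for expression were 0 in every setting tried, and calls of member transcripts likewise. Counts over all genes moved: 0 genes called became 2 with DESeq2 and 1 with a term for replicate number 1 or, chosen after seeing the data, without the replicates 1; 0 transcripts became 110 with DESeq2. The 23 genes called for usage became 1 with at least 10 counts in every mouse, 4 with limma's test, 13 with the replicate block, 52 with the term for number 1 and 249 without the replicates 1 (1 member, Dclk1), and ranged from 9 to 143 when 1 mouse was left out, the highest without WT replicate 1 and the lowest without KO replicate 3. The replicate block changed no member's call.

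With 1 mouse left out, log2 fold changes ran from −0.76 to 0.94 for Tubb2b, −0.71 to 0.92 for Stmn2, −0.78 to 0.72 for Tubb3, −0.20 to 0.63 for Dcx, −0.31 to 0.027 for Map1a, −0.080 to 0.19 for Map2, −0.14 to 0.18 for Mapt, −0.13 to 0.053 for Nefl and −0.11 to 0.029 for Map1b, the extremes of Tubb2b, Stmn2, Tubb3 and Dcx being the settings without KO or WT replicate 1. Dclk1 kept its sign. With limma on TPM, Nefl turned to 0.049 and Map1b to 0.042. Tubb3 turned to −0.036 with the replicate block, −0.033 with the term for number 1 and −0.10 without the replicates 1, and Mapt turned to −0.089 without them.

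For exon inclusion (KO minus WT), the first N-terminal exon of Mapt was −0.0042, 0.00034 with estimated counts, 0.0022 without the replicates 1, and from −0.024 to 0.022 with 1 mouse left out. The second was 0.0036 and ranged from −0.011 to 0.026, the long Map2 exon was 0.015 and ranged from −0.051 to 0.069, and the repeat exon kept its sign. The early against late difference ranged from −0.25 to 0.51 with 1 mouse left out and was 0.15 within the replicate block. The lowest level of a member gene was 14.5 TPM (Dcx). WT replicate 1 had the lowest depth, and the part of depth in transcript and exon values was not tested.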
